A study of Saccharomyces cerevisiae with 30 samples.

Results

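The 10 genes described here encode enzymes of yeast glycolysis and of the fermentation of pyruvate to ethanol. They are HXK2, PGI1, PFK1, PFK2, FBA1, GPM1, CDC19, PDC1, PDC5 and ADH1, and they were taken by name from a list. All 10 were found on the array, each as 1 spot, among 5547 genes in all. The study compared mRNA of Saccharomyces cerevisiae strains on 30 two-colour arrays of 6400 spots, under a title that names the coactivator complexes TFIID and SAGA. Of 11 strain groups, 6 were measured against the strain YJS6: YKH100, YKH101, YJS7, YJS8 and YJS9, all shifted to 37 °C for 45 min, and YJS8 kept at 26 °C. The other 5, YKH104, YKH106, YKH107, YKH108 and YKH109, were measured against YKH105 after the same shift. On 23 of the arrays a test strain and its reference strain carried opposite dyes. The references themselves were hybridised against their own RNA on 4 YJS6 and 3 YKH105 self arrays. All strains grew in a synthetic medium without tryptophan and histidine at 26 °C before any shift. The labels name the strains by code only, so no genotype is given or assumed here, and they do not say whether arrays of a strain came from separate cultures. The p-values therefore measure the spread between arrays, which may be technical.

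Glycolysis turns glucose into pyruvate. A hexokinase first phosphorylates glucose, phosphoglucose isomerase and phosphofructokinase prepare the sugar, aldolase splits it, and the lower steps up to pyruvate kinase give back ATP. In baker's yeast grown on glucose most pyruvate is then decarboxylated to acetaldehyde and reduced to ethanol, even in air. Glycolytic and fermentative mRNAs are among the most abundant of the glucose-grown cell, and the transcription factors Gcr1 and Rap1 act on many of their promoters. TFIID and SAGA both bring the TATA-binding protein to promoters of genes read by RNA polymerase II.

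Each array gave between 5955 and 6388 spots with a value, the deposited log2 ratio of the dyes. The self arrays, where a ratio of 1 is the true value, had array medians between -0.54 and 0.67, and 4 of the 7 lay more than 0.2 from 0. The values below are therefore centred on each array's median unless they are called deposited. A centred value says how a gene stood relative to the median gene of the same array, not whether its mRNA rose or fell per cell. The labels do not settle which way the ratios run. Arrays of opposite dye orientation correlated positively across genes in 8 of the 9 groups that have both, with the highest r at 0.923, and at -0.44 in YJS8 at 26 °C. Read as test strain over reference, SPT3 stood at -8.33 in YKH104 and -8.23 in YKH107, and GCN5 at -4.97 in YKH100, -5.40 in YKH101, 2.48 in YJS7 and 3.21 in YJS9. Both genes encode SAGA subunits. On that basis test over reference is the likely direction and is used throughout, and if the ratios run the other way every sign turns. One column of values was deposited under both YKH100 replicate 2 and YJS8 at 37 °C replicate 2. It was left out of the model, which leaves 1 array for each of these groups.

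In 6 strains at 37 °C, members differed from the reference at a limma adjusted p under 0.05. In YKH101, 7 of the 10 genes were higher and 1 was lower, where 18.9% of all genes tested were higher and 20.4% lower. In YJS8, on its single array, 7 were higher and 0 lower, where 8.14% of all genes were higher. YJS9 had 5 higher and 0 lower, against 20.9% of all genes higher. In YKH108, 8 were higher and 1 was lower, with 17.0% of all genes higher and 19.9% lower. YKH109 had 5 members higher and 3 lower, where 25.1% of all genes were higher and 27.8% lower. The 3 lower members are thus near the share over all genes. YKH107 went one way, with 6 lower and 0 higher, where 24.9% of all genes were lower and 23.5% higher. The 10 effects had a median of 1.09 in YKH101, 1.16 in YJS8 and 0.56 in YJS9. Against YKH105 the median was -0.62 for YKH107, 0.95 for YKH108 and 0.57 for YKH109. The median over all genes lay between -0.015 and 0.016. Over 110 tests of a member in a group, 32 were higher and 11 lower, where 11.7% of all gene tests were higher and 12.6% lower. With each array left out in turn and under every other setting tried, the deposited scale among them, 9 of these 43 calls held: HXK2, PFK1 and PFK2 in YKH107 and YKH109, ADH1 in YKH107, and PDC1 and PDC5 in YJS9.

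**Figure D1:**
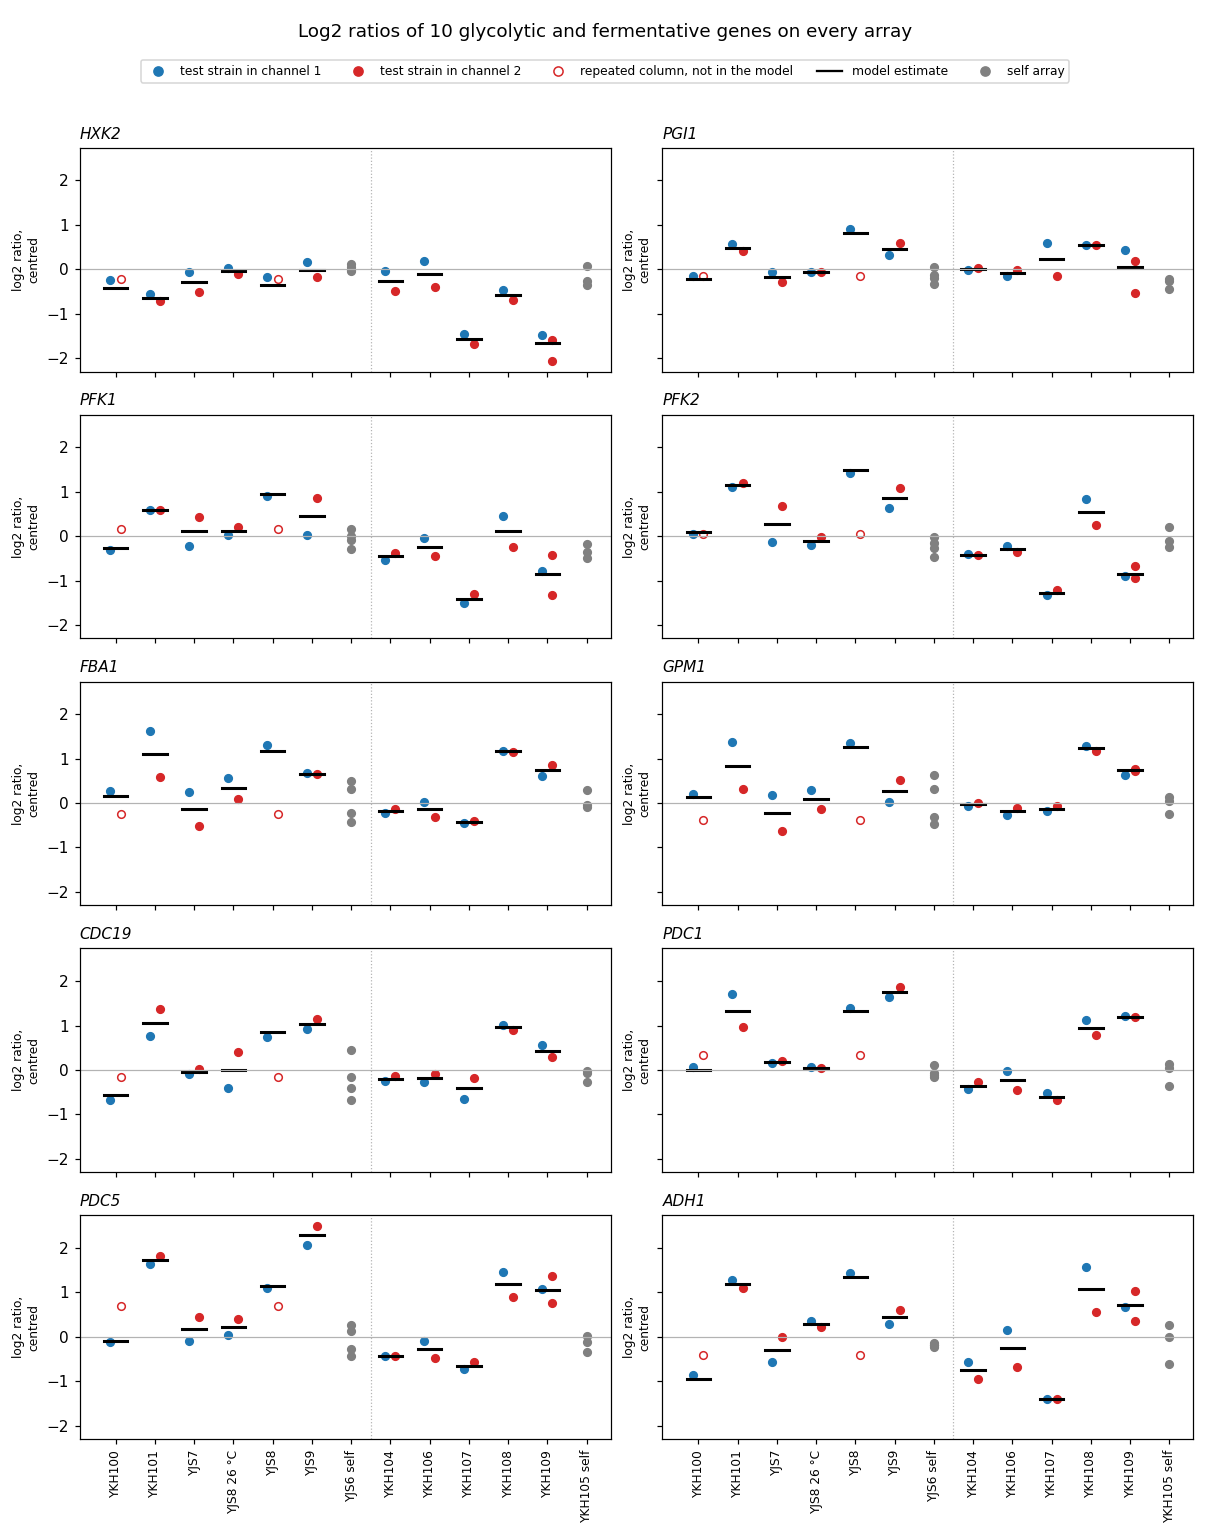
Centred log2 ratio of each gene on every array (y axis), by strain group (x axis), with YJS6-referenced groups left of the dotted line and YKH105-referenced groups right of it. Groups are at 37 °C unless marked, colours give the channel of the test strain, open circles the column deposited under 2 strains, bars the model estimate and grey points the self arrays. HXK2 is lowest in YKH107 and YKH109, and PDC5 is highest in YJS9.

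HXK2 encodes hexokinase isoenzyme 2, the main glucose-phosphorylating enzyme during growth on glucose and also a part of glucose repression. Its centred log2 ratio was -1.49, -2.07 and -1.59 on the 3 YKH109 arrays, against -0.36, 0.06 and -0.26 on the YKH105 self arrays. YKH107 gave -1.46 and -1.68. All 5 of these arrays lay below every self array, with no overlap. The model put HXK2 at -1.66 ± 0.10 in YKH109 (SE, n = 3, adjusted p = 1.51e-07), a 0.316-fold ratio, and at -1.57 ± 0.12 in YKH107 (n = 2, adjusted p = 2.09e-06). Smaller decreases passed the test in YKH101 and YKH108. The YKH101 arrays read -0.56 and -0.72, against -0.03 to 0.12 on the 4 YJS6 self arrays, for an effect of -0.64 ± 0.12 (adjusted p = 0.00145). The YKH108 arrays read -0.46 and -0.70, for an effect of -0.58 ± 0.12 (adjusted p = 0.0032). Without replicate 1 of its own strain, each of these last calls was lost, at -0.55 in YKH101 and -0.54 in YKH108. HXK2 was higher in none of the 11 groups, and its estimate in YJS9 was -0.01 ± 0.12. On the centred scale it was the only member with an estimate below 0 in all 11 groups, while its deposited estimate in YKH106 was 0.06.

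The upper steps after hexokinase did not move together. PGI1 encodes phosphoglucose isomerase, which turns glucose 6-phosphate into fructose 6-phosphate. It read 0.54 and 0.55 on the YKH108 arrays, against -0.45 to -0.23 on the YKH105 self arrays, and this was its only call (0.54 ± 0.19, adjusted p = 0.0436). That call was lost when either YKH108 array, or any of 10 arrays of other strains, was left out, and on the deposited scale the estimate had the other sign at -0.14. Its single YJS8 value at 37 °C was 0.90, for an estimate of 0.83 ± 0.28 that did not pass the test (adjusted p = 0.0651).

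PFK1 and PFK2 encode the alpha and beta subunits of phosphofructokinase, the enzyme that commits sugar to glycolysis. In YKH107, PFK1 read -1.51 and -1.30 and PFK2 -1.32 and -1.22, against -0.50 to -0.17 and -0.24 to 0.21 on the YKH105 self arrays. In YKH109, PFK1 read -0.78, -1.31 and -0.43 and PFK2 -0.89, -0.94 and -0.67. Both subunits were thus low in both strains, although the PFK1 value of -0.43 on YKH109 replicate 3 lay within the range of its self arrays. The effects were -1.41 ± 0.25 for PFK1 and -1.27 ± 0.18 for PFK2 in YKH107 (adjusted p = 0.000606 and 0.000129), and -0.86 ± 0.21 and -0.85 ± 0.15 in YKH109 (adjusted p = 0.00409 and 0.000501). PFK2 was higher in 4 other strains, with values of 1.10 and 1.20 in YKH101, 1.43 in YJS8 at 37 °C, 0.63 and 1.08 in YJS9, and 0.83 and 0.26 in YKH108. YJS6 self arrays gave PFK2 values from -0.47 to -0.01, below all of the YJS6-referenced values just named. The effects were 1.15 ± 0.18, 1.48 ± 0.26, 0.86 ± 0.18 and 0.54 ± 0.18 in the same order, and adjusted p ran between 0.000372 and 0.0337. The YKH108 value rested on replicate 1, since the estimate was 0.16 without it and 0.93 without replicate 2, and it had the other sign on the deposited scale at -0.14. The YJS9 call was lost without replicate 2, at 0.66. PFK1 passed the test as higher in none of these strains, with estimates of 0.59 in YKH101, 0.94 in YJS8, 0.44 in YJS9 and 0.11 in YKH108. A difference between the subunits was not tested. Within arrays, PFK2 minus PFK1 was 0.52 and 0.60 in YKH101, 0.53 in YJS8 at 37 °C and 0.61 and 0.215 in YJS9, against -0.47 to 0.27 on the YJS6 self arrays. In YKH108 it was 0.38 and 0.49, against 0.10 to 0.39 on the YKH105 self arrays. The second YJS9 array and the first YKH108 array thus lay inside the self range.

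Aldolase (FBA1), phosphoglycerate mutase (GPM1) and the main pyruvate kinase (CDC19) are the members from the splitting of the sugar to pyruvate. FBA1, which splits fructose 1,6-bisphosphate, read 1.18 and 1.14 in YKH108 and 0.62 and 0.86 on the 2 YKH109 arrays with a value, against -0.09 to 0.28 on the YKH105 self arrays. It read 1.62 and 0.59 in YKH101, 1.31 in YJS8 at 37 °C and 0.68 and 0.65 in YJS9, against -0.43 to 0.49 on the YJS6 self arrays. All of these values lay above the self arrays of their reference. The effects were 1.16 ± 0.20 in YKH108, 0.74 ± 0.20 in YKH109, 1.11 ± 0.20 in YKH101, 1.18 ± 0.29 in YJS8 and 0.66 ± 0.20 in YJS9, and each passed the test with an adjusted p between 0.00119 and 0.0208. The YJS9 call was lost without either array, at 0.79 and 0.54, and the YKH101 call was lost without replicate 1, at 0.67. On the deposited scale FBA1 in YKH109 had the other sign, at -0.25.

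GPM1, which moves the phosphate of 3-phosphoglycerate, read 1.29 and 1.18 in YKH108 and 0.63, 0.73 and 0.77 in YKH109, against -0.25 to 0.13 on the YKH105 self arrays. These 5 arrays were close to each other within a strain and lay above the self arrays. The effects were 1.24 ± 0.22 in YKH108 and 0.73 ± 0.18 in YKH109 (adjusted p = 0.00114 and 0.00534), and on the deposited scale the YKH109 estimate had the other sign at -0.17. Against YJS6 the picture was less even. YKH101 arrays read 1.37 and 0.32, and YJS8 at 37 °C read 1.34, against -0.46 to 0.64 on the YJS6 self arrays, so that one YKH101 value lay inside the self range. The YKH101 effect of 0.84 ± 0.22 (adjusted p = 0.00966) became 0.34, no longer past the threshold, without replicate 1 and 1.35 without replicate 2. The YJS8 effect was 1.27 ± 0.32 (adjusted p = 0.0205).

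CDC19, whose enzyme makes pyruvate and ATP, read 1.02 and 0.90 in YKH108, 0.77 and 1.36 in YKH101, 0.92 and 1.15 in YJS9 and 0.73 in YJS8 at 37 °C. Its YJS6 self arrays spread from -0.68 to 0.44, the widest of the 10 genes, and its YKH105 self arrays from -0.26 to -0.03. The test values were all above those of their self arrays. The effects were 0.96 ± 0.17 in YKH108, 1.07 ± 0.17 in YKH101, 1.03 ± 0.17 in YJS9 and 0.85 ± 0.25 in YJS8, with adjusted p between 0.000528 and 0.0394. The YKH108 call was lost without replicate 1, at 0.76. The YJS8 call was lost when any 1 of 8 arrays of other strains was left out, with estimates from 0.83 to 0.86, and the YJS8 estimate had the other sign on the deposited scale at -0.03. CDC19 in YKH109, at 0.56 and 0.29 on its 2 arrays, was not called (0.42 ± 0.17, adjusted p = 0.0546).

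PDC1 encodes the main pyruvate decarboxylase, which forms acetaldehyde, and PDC5 its minor isoenzyme, known to be induced when PDC1 is missing. Both had their highest values in YJS9. PDC1 read 1.65 and 1.86 and PDC5 2.06 and 2.51 in YJS9, against -0.16 to 0.11 and -0.42 to 0.27 on the YJS6 self arrays. No test array of either gene came near the self arrays there. The effects were 1.75 ± 0.15 for PDC1 (SE, n = 2, adjusted p = 8.26e-06) and 2.28 ± 0.19 for PDC5 (adjusted p = 3.57e-06), 3.38-fold and 4.87-fold ratios. They were the only members called higher on the deposited scale, at 1.25 and 1.78. In YKH101, PDC1 read 1.70 and 0.97 and PDC5 1.64 and 1.81, with effects of 1.33 ± 0.15 and 1.73 ± 0.19 (adjusted p = 6.71e-05 and 3.13e-05). In YJS8 at 37 °C the single values were 1.40 and 1.10, for effects of 1.33 ± 0.23 and 1.14 ± 0.28 (adjusted p = 0.00312 and 0.0171).

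Against YKH105, PDC1 read 1.12 and 0.78 in YKH108 and 1.22 and 1.18 on 2 YKH109 arrays, against -0.36 to 0.14 on the self arrays. PDC5 read 1.46 and 0.90 in YKH108 and 1.08, 0.76 and 1.38 in YKH109, against -0.35 to 0.03. Both strains lay clear of the self arrays for both genes. The effects were 0.95 ± 0.15 and 1.18 ± 0.19 in YKH108 (adjusted p = 0.000812 and 0.000611) and 1.20 ± 0.15 and 1.06 ± 0.16 in YKH109 (adjusted p = 8.01e-05 and 0.000155). YKH107 was lower for both, with PDC1 at -0.52 and -0.68 and PDC5 at -0.72 and -0.57. The YKH107 effects of -0.60 ± 0.15 and -0.65 ± 0.19 (adjusted p = 0.00839 and 0.0152) were each lost when either YKH107 array was left out, at -0.60 and -0.59 for PDC1 and at -0.60 and -0.69 for PDC5. Probe sequences were not used here, and signal from such near-identical coding sequences may not be told apart. Within arrays, PDC5 minus PDC1 was 0.41 and 0.64 in YJS9, against -0.32 to 0.29 on the YJS6 self arrays.

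ADH1 encodes the main fermentative alcohol dehydrogenase, which makes ethanol and restores NAD. Its values in YKH107 were -1.40 and -1.41, against -0.61 to 0.27 on the YKH105 self arrays. The 2 arrays agreed closely and lay below all 3 self arrays. The effect was -1.40 ± 0.24 (n = 2, adjusted p = 0.000545), a 0.378-fold ratio. ADH1 was higher in YKH108, at 1.57 and 0.56, and in YKH109, at 0.66, 0.36 and 1.04. These effects of 1.07 ± 0.24 and 0.72 ± 0.20 (adjusted p = 0.00493 and 0.0104) leaned on single arrays. The YKH108 call was lost without replicate 1, at 0.60, and the YKH109 call without replicate 3, at 0.51, and on the deposited scale the YKH109 estimate had the other sign at -0.19. Against YJS6, ADH1 read 1.28 and 1.10 in YKH101 and 1.43 in YJS8 at 37 °C, above the self range of -0.23 to -0.13. The effects were 1.19 ± 0.24 and 1.34 ± 0.35 (adjusted p = 0.00226 and 0.0233). YJS9 read 0.29 and 0.62 and was not called (0.45 ± 0.24, adjusted p = 0.156).

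**Figure D2:**
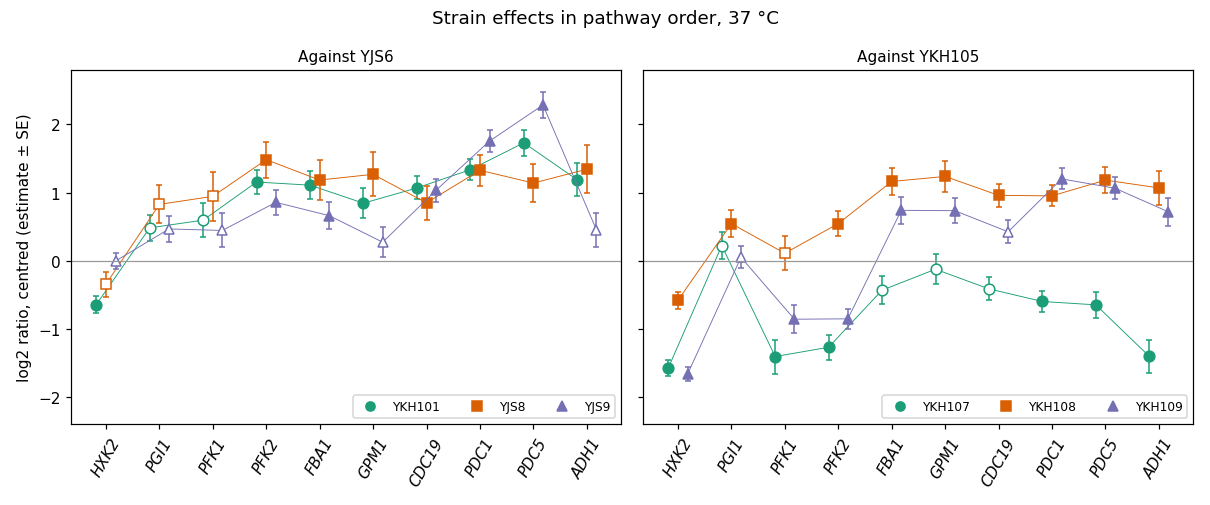
Model estimate of the centred log2 ratio with its SE (y axis) for the 10 genes in pathway order (x axis), in the 3 YJS6-referenced strains (left) and the 3 YKH105-referenced strains (right) with calls at 37 °C. Filled symbols passed the test. YKH109 is at -1.66 for HXK2 and 1.20 for PDC1, while YKH107 has no member called higher. Estimates that have the other sign on the deposited scale are CDC19 in YJS8, PGI1 and PFK2 in YKH108, and PGI1, FBA1, GPM1, ADH1 and CDC19 in YKH109, as well as PGI1, PFK1, GPM1 and ADH1 in YJS9, PGI1 in YJS8 and YKH107, PFK1 in YKH108, and PGI1 and PFK1 in YKH101.

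A difference between 2 genes on the same array does not depend on the array median. PDC1 minus HXK2 was 2.71 and 2.78 on the 2 YKH109 arrays that measured both, against -0.10 to 0.50 on the YKH105 self arrays. It was 1.58 and 1.48 in YKH108 and 0.94 and 1.01 in YKH107. In all 3 strains, PDC1 thus stood higher relative to HXK2 than on any self array, YKH107 included, where both genes were low. Against YJS6 the same difference was 2.27 and 1.69 in YKH101, 1.58 in YJS8 at 37 °C and 1.49 and 2.03 in YJS9, against -0.22 to 0.06 on the self arrays. FBA1 minus PFK2, the aldolase against a subunit of the enzyme just before it, was 1.51 and 1.53 in YKH109, 0.86 and 0.81 in YKH107, and 0.35 and 0.89 in YKH108, against -0.24 to 0.39 on the YKH105 self arrays. In YKH101 that difference was 0.52 and -0.61, in YJS8 -0.12 and in YJS9 0.05 and -0.44, against -0.17 to 0.51 on the YJS6 self arrays. Every array of YKH107 and YKH109 that measured both genes lay above the self range of this difference. In each of the other 4 strains at least 1 array did not. The differences were taken after the values were seen and have no test.

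The deposited scale gave another balance of calls. The members had a median of 0.40 in YKH101, 0.28 in YJS8 at 37 °C and 0.06 in YJS9, where all genes had medians of -0.69, -0.88 and -0.52. Against YKH105 the members had a median of -1.58 in YKH107, 0.27 in YKH108 and -0.41 in YKH109, where all genes had medians of -0.96, -0.70 and -0.89. YKH107 had 9 members lower, where 53.4% of all genes were lower, and YKH109 had 4, where 60.6% of all genes were lower. YJS9 kept PDC1 and PDC5 as 2 higher, where 3.49% of all genes were higher. HXK2 was the 1 member lower in YKH101 and in YKH108, where 31.1% and 29.8% of all genes were lower, and YJS8 had no member called, where 2.24% of all genes were called. Over the 110 tests this makes 2 higher and 15 lower, against 32 and 11 after centring, where 0.889% of all gene tests were higher and 18.2% lower. Of the calls, 13 were made in the same direction on both scales. Which scale comes closer to mRNA per cell was not tested.

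**Figure D3:**
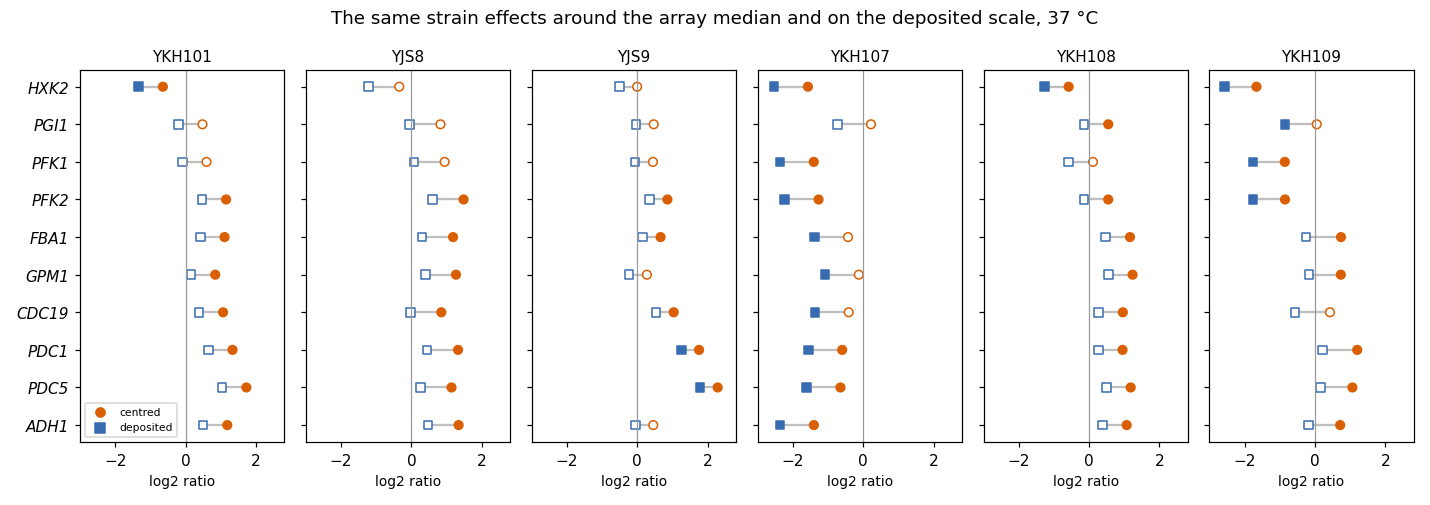
The same estimates centred on the array median (orange circles) and on the deposited scale (blue squares), as log2 ratios (x axis), for each gene (y axis) in the 6 strains with calls at 37 °C. Filled symbols passed the test on that scale. HXK2 in YKH107 lies at -1.57 centred and -2.53 deposited, and PDC5 in YJS9 at 2.28 and 1.78.

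In the other 4 strains at 37 °C no member was called. In YKH104 the estimates ran from -0.75 for ADH1 to 0.01 for PGI1. In that strain 5 members had an unadjusted p under 0.05, 0 passed adjustment, and 13.6% of all genes were called. ADH1 there read -0.56 and -0.95, the second below its self range. YJS7 ran from -0.29 to 0.28, with 1 member at an unadjusted p under 0.05 and 0 called, where 14.3% of all genes were called. YKH100, on 1 array, ran from -0.95 for ADH1 to 0.15, with 3 members at an unadjusted p under 0.05 and 0 called, where 1.33% of all genes were called. YKH106 ran from -0.28 to -0.08, with 0 members called and 0 at an unadjusted p under 0.05, where 1.09% of all genes were called. The limma test thus found no member in these 4 strains, which does not show that the genes were equal to the reference.

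YJS8 was measured at 2 temperatures, each time against YJS6, which is taken to have been treated alike. A difference between them is thus between ratios to YJS6, not a change of YJS8 mRNA alone. The 2 arrays at 26 °C correlated at -0.44 across genes. Kept at 26 °C, its members ran from -0.11 to 0.33, with 0 called and 0 at an unadjusted p under 0.05, where 0.0182% of all genes were called. PFK2 read 1.43 at 37 °C, against -0.20 and -0.02 at 26 °C, and PDC1 read 1.40, against 0.06 and 0.04. Both shifted values lay far above the unshifted ones, with a single array on the shifted side. The differences between the temperatures were 1.59 ± 0.32 for PFK2 (adjusted p = 0.0117) and 1.28 ± 0.27 for PDC1 (adjusted p = 0.0186). These were the 2 members called of 10, where 4.37% of all genes were higher, and 8 had an unadjusted p under 0.05. Both calls were lost without 26 °C replicate 1, at 1.55 and 1.20, and PDC1 also without replicate 2, at 1.34. They were lost too when the repeated column was counted as a second YJS8 array. In that setting the single-strain effects of PFK2, FBA1, GPM1, CDC19 and ADH1 in YJS8 dropped to 0.74, 0.53, 0.49, 0.29 and 0.51. These did not pass the test, while PDC1 and PDC5 still did. The members of the repeated column had a median of -0.15, against -0.13 in YKH100 replicate 1 and 1.20 in YJS8 replicate 1 at 37 °C. PDC5, at 0.69 in the column, was nearer to YJS8 (1.10) than to YKH100 (-0.12). Which strain the column came from was not tested.

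Strains measured against the same reference were set against each other in the same model. YKH107 was lower than YKH108 for 9 of the 10 members, all but PGI1, where 9.76% of all genes were lower. ADH1 differed most, with -1.40 and -1.41 in YKH107, against 1.57 and 0.56 in YKH108, a difference of -2.47 ± 0.34 (adjusted p = 0.000445). PFK2, FBA1, PDC5 and ADH1 were also called in this pair on the deposited scale, and 7 of the 9 calls, all but those of GPM1 and PFK1, held with each array left out. YKH107 was lower than YKH109 for 5 members, FBA1, CDC19, PDC1, PDC5 and ADH1, where 6.59% of all genes were lower. PDC1, PDC5 and ADH1 held with each array left out, and on the deposited scale none of the 5 passed, with ADH1 nearest at -2.17 (adjusted p = 0.0613). HXK2, low in both, differed between them by 0.09 ± 0.16 (adjusted p = 0.77), PFK1 by -0.55 ± 0.32 (adjusted p = 0.313) and PFK2 by -0.42 ± 0.23 (adjusted p = 0.292). The 5 calls of this pair were thus of FBA1 or genes after it, but GPM1 was not called, and PFK1 and PFK2 also had estimates below 0. Whether upper and lower genes differ was not tested. YKH108 was higher than YKH109 for HXK2, by 1.08 ± 0.16 (adjusted p = 0.00181), and for PFK2, by 1.40 ± 0.23 (adjusted p = 0.00398), where 3.6% of all genes were higher. On the deposited scale neither passed, at 1.30 and 1.61 (adjusted p = 0.414 and 0.31). No member from FBA1 to ADH1 passed in that pair, where the differences ran from -0.25 for PDC1 to 0.54 for CDC19.

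Among the YJS6-referenced strains, no member passed the limma test between YJS8, YJS9 and YKH101. YJS8 minus YJS9 had 2 members at an unadjusted p under 0.05, with PDC5 at -1.15 ± 0.34, where 6.14% of all genes were called. YJS9 minus YKH101 had 1 such member, HXK2 at 0.64, where 2.5% of all genes were called, and YJS8 minus YKH101 had 0, where 0.859% were. YJS7 was lower than YKH101 for 6 members, where 5.98% of all genes were lower. It was lower than YJS8 for 4 members and than YJS9 for 3, where 3.9% and 9.03% of all genes were lower, and PDC5 differed from YJS9 by -2.11 ± 0.27. None of these 13 calls passed on the deposited scale, where PFK2 between YJS7 and YKH101 had the other sign at 0.005. With each array left out, only PDC1 and PDC5 against YJS9 and PDC5 against YKH101 held, and YJS8 rests on 1 array. Between YKH104 and YKH106, 0 members were called and 0 had an unadjusted p under 0.05, where 0.164% of all genes were called. Over the 20 pairs, 70 of 200 tests of a member passed, none of them for PGI1, where 10.7% of all gene tests passed. Of the 70 calls, 28 held with each array left out and 12 on the deposited scale, all 12 in pairs that include YKH107 or YKH109. The single arrays of YJS8 at 37 °C and of YKH100 could not be left out. The 28 include 1 call between YJS8 and YKH100 and 3 between YJS9 and YKH100, which were therefore not fully put to this check.

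**Figure D4:**
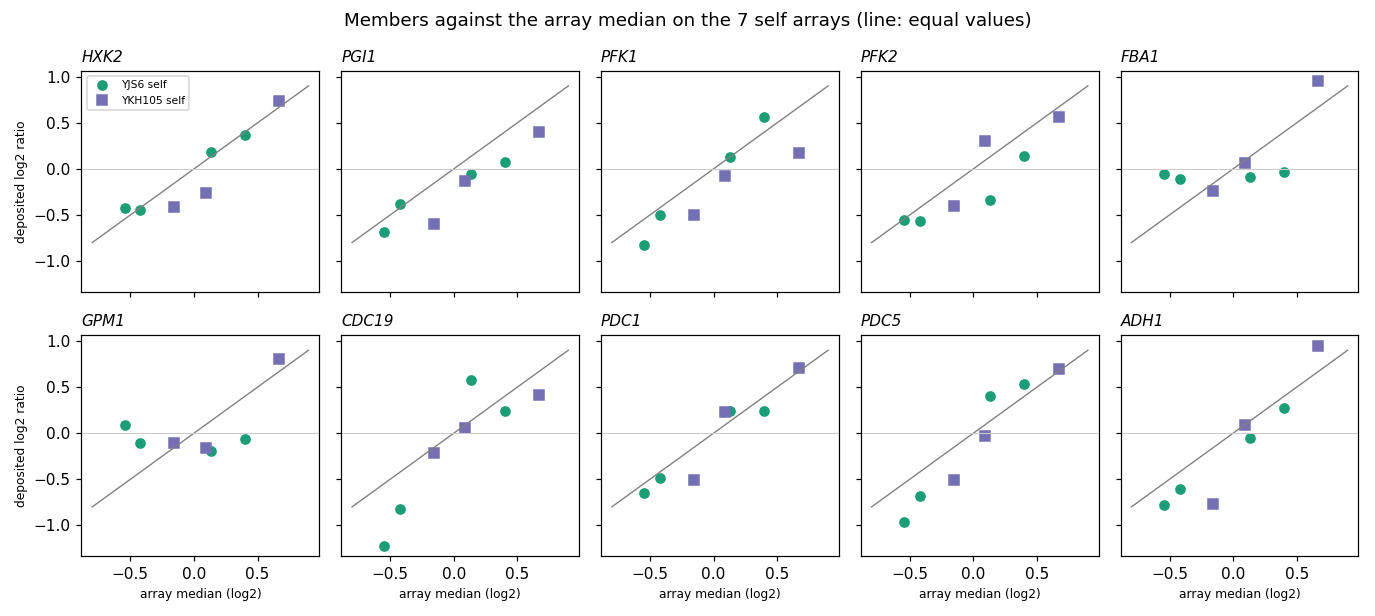
Deposited log2 ratio of each gene (y axis) against the median of the array (x axis) on the 4 YJS6 (green circles) and 3 YKH105 (purple squares) self arrays, with a line at equal values. FBA1 and GPM1 on the YJS6 self arrays stay near 0 while the array median runs from -0.54 to 0.40.

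Centring assumes that a gene follows the array median when nothing differs. Over the 7 self arrays this failed for 1 of the 10 members, GPM1, whose summed squared distance from 0 was 0.902 centred and 0.739 as deposited. The same mark fell on 433 of 5458 genes, or 7.93%. The slope of a member on the array median ran from 0.424 for GPM1 to 1.449 for PDC5, with a median of 0.996. On the 4 YJS6 self arrays alone, FBA1 also kept away from the median, at 0.58 centred and 0.024 deposited, and so did GPM1 at 0.818 and 0.06. For these genes the centred values against YJS6 carry part of the array median. Deposited, FBA1 was 0.49 and 0.35 in YKH101, 0.34 in YJS8 at 37 °C and 0.23 and 0.08 in YJS9, against -0.11 to -0.03 on the YJS6 self arrays. GPM1 was 0.24 and 0.07 in YKH101, 0.37 in YJS8 at 37 °C and -0.42 and -0.06 in YJS9, against -0.19 to 0.09. All FBA1 values named here lay above the self range, while for GPM1 only the first YKH101 array and the YJS8 array did. On the 3 YKH105 self arrays, PFK1 was the member that did not follow, at 0.396 centred and 0.286 deposited. Against YKH105, arrays with the test strain in channel 1 all have lower title numbers than those with it in channel 2, so dye and array number cannot be told apart there.

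The neighbouring genes of the pathway were taken from lists, 65 in all beside the members. Of the other 12 glycolytic genes, 9 were higher and 0 lower in YKH101, 8 and 0 in YJS8 at 37 °C, 5 and 3 in YJS9, 9 and 0 in YKH108, 9 and 1 in YKH109, and 2 and 4 in YKH107. Their medians were 0.92, 1.07, 0.56, 0.84, 0.72 and -0.23 in this order. Shares over all genes in these strains are those given for the members, with 7.74% lower in YJS8. On the deposited scale the same 12 genes had 2 higher and 2 lower in YKH101, 0 and 0 in YJS8 and in YKH108, 1 and 2 in YJS9, 2 and 3 in YKH109, and 0 and 7 in YKH107. Over all 65, 254 of 710 tests in the 11 groups were called, or 35.8%, against 24.3% of all gene tests. Of these calls, 127 held with each array left out in turn, 90 held on the deposited scale and 56 held both ways. The single arrays of YJS8 at 37 °C and of YKH100 could not be left out. The other hexose kinases went apart from HXK2 in YKH109 and YKH101. In YKH107, where HXK2 was low, HXK1 also had its lowest estimate, at -0.63, though HXK1 was called lower in no group. GLK1, glucokinase, was at 2.31 ± 0.20 in YKH109 (adjusted p = 2.22e-06), 2.54 ± 0.24 in YKH101 and 1.98 ± 0.24 in YJS9, and HXK1, hexokinase isoenzyme 1, at 2.41 ± 0.24 in YKH109 (adjusted p = 5.72e-06) and 1.69 ± 0.28 in YKH101, and each of these held both ways. Both genes varied widely on the 4 YJS6 self arrays. Their summed squared centred values there were 3.691 for HXK1 and 1.433 for GLK1, against 0.843 for CDC19, the largest among the members. The estimates against YJS6 are to be read with that spread. GLK1 was also lower in YKH104, at -1.36, a call that was lost on the deposited scale and with an array left out. In YKH109 the hexose kinases were thus split, with HXK1 and GLK1 higher and HXK2 lower on both scales.

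**Figure D5:**
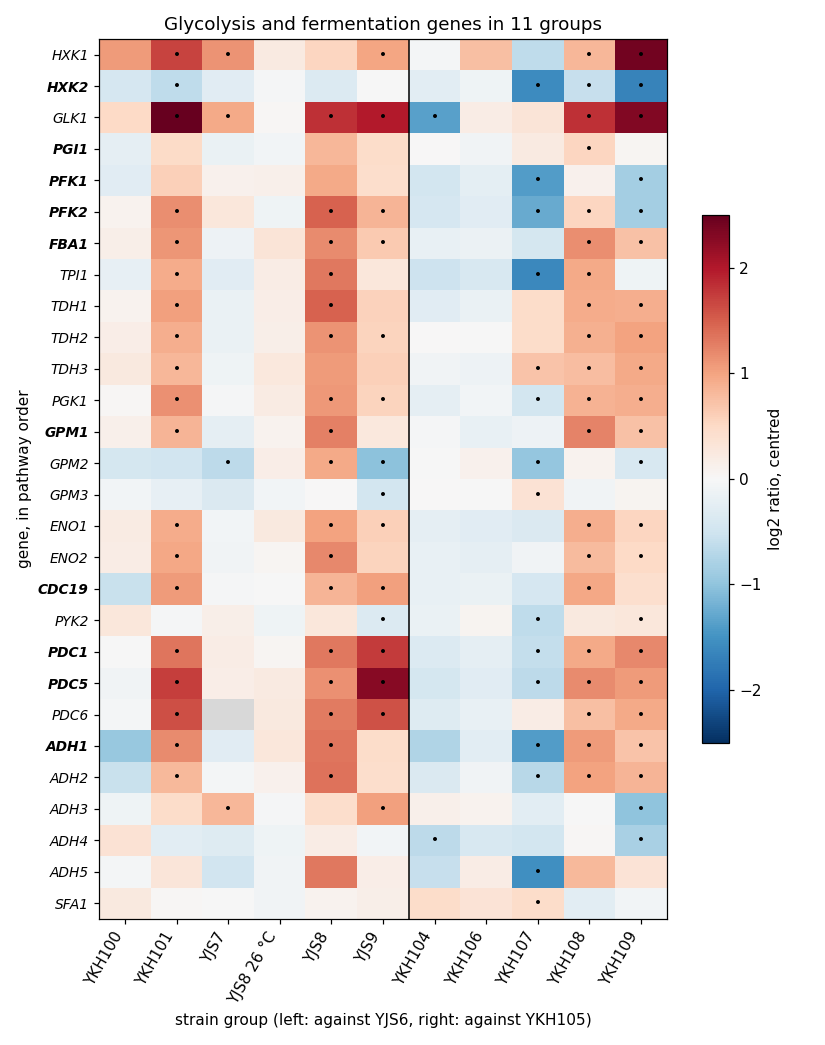
Centred log2 estimates (colour) of the 10 members (bold) and 18 other glycolysis and fermentation genes in pathway order (rows) across 11 strain groups (columns, YJS6-referenced left of the line). A dot marks a call and grey a gene that was not tested. HXK1 and GLK1 are dark red and HXK2 dark blue in YKH109, and on the deposited scale ENO1, ENO2 and ADH2 in YKH109, GPM3, TDH3 and SFA1 in YKH107 and PYK2 in YKH109 have the other sign, besides the members named in the text.

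TPI1, triose phosphate isomerase, was at -1.62 ± 0.18 in YKH107 (adjusted p = 2.3e-05), held both ways, and at 1.32 in YJS8, 0.92 in YKH101 and 0.95 in YKH108. None of these last 3 held on the deposited scale. In YKH107, TPI1 therefore went with PFK1, PFK2 and ADH1 rather than with GPM1. The triose phosphate dehydrogenase genes TDH1 and TDH2 were called higher in 4 and 5 groups, TDH3 in 4, phosphoglycerate kinase (PGK1) in 5 and lower in 1, and the enolases ENO1 and ENO2 in 5 and 4. None of these calls as higher held on the deposited scale, and TDH1, TDH3, PGK1, ENO1 and ENO2 are among the 12 of 64 other pathway genes, or 18.8%, that did not follow the median on the self arrays, as is GPM2. GPM2, a homologue of GPM1, was lower in 4 groups, at -1.02 in YJS9 where it held both ways, and higher in 1. GPM3, another, was higher in 1 group and lower in 1. PYK2, the minor pyruvate kinase, was lower in 2 and higher in 1, at -0.63 in YKH107 where it held both ways. Of the other pyruvate decarboxylase and alcohol dehydrogenase genes, PDC6 was higher in 5 groups, at 1.60 in YJS9 where it held both ways, and ADH2, the glucose-repressed dehydrogenase that oxidises ethanol, was higher in 4 groups and lower in 1. ADH5 was lower in 1 group, YKH107, at -1.54, and ADH4 in 2 groups, at -0.81 in YKH109, and both values held both ways. ADH3, the mitochondrial alcohol dehydrogenase, was higher in 2 groups and lower in YKH109 at -1.01, which held both ways and was -0.62 without replicate 2. SFA1 was higher in YKH107 at 0.45, with the other sign on the deposited scale. Cross-signal between ADH1 and ADH2 was not tested.

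The branches that take pyruvate elsewhere went in more than one direction. Of the genes for pyruvate dehydrogenase subunits, PDB1 was lower in 4 groups, and PDA1, PDX1 and LAT1 were each lower in 3, while LAT1 was higher in 1. In YJS9, where PDC1 and PDC5 were highest, PDB1 was at -1.005, LPD1 at -0.99, PDA1 at -0.84, PDX1 at -0.63 and LAT1 at -0.60, all 5 called lower on both scales, where 23.1% of all genes were lower, and the PDA1 and PDX1 calls also held with each array left out. PYC1, pyruvate carboxylase isoform 1, was higher in 6 groups, at 2.46 in YJS9 and 2.44 in YKH101, both held both ways, while PYC2, the other isoform, was lower in YKH107 and YKH109, at -1.15 and -0.86, both held both ways. PDA1, LPD1 and PYC1 are also among the genes that did not follow the median on the self arrays. The aldehyde dehydrogenase genes ALD3 and ALD2 were higher in 9 and 7 groups, with 3.32 and 3.07 in YKH109, both held both ways. ALD4, the main mitochondrial form, was higher in 5 groups and lower in 2, at 2.13 in YKH101, 1.71 in YJS9 and 1.55 in YKH109, each held both ways. ALD6, the main cytosolic form, was higher in 4 groups, with no such call on the deposited scale, and lower in 1. ALD5 was higher in 2 groups and lower in YKH107, at -1.86, which held both ways. The acetyl-CoA synthetase genes ACS1 and ACS2 had 0 limma calls and 0 values at an unadjusted p under 0.05, with estimates from -1.32 to 0.86 and from -1.39 to 1.63.

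RKI1, ribose 5-phosphate isomerase of the pentose phosphate pathway, was lower in 8 of 11 groups, at -2.18 in YKH107, which held both ways, and RPE1, the epimerase beside it, in 5, at -1.21 in YKH109 where it held both ways. ZWF1, which opens that pathway, was higher in 6, with no such call on the deposited scale, and lower in 1. Some isoenzymes of the pentose phosphate pathway stood on opposite sides in YKH109, as the hexose kinases did. GND2, the minor 6-phosphogluconate dehydrogenase, was at 2.71 there, TKL2, the minor transketolase, at 2.34 and NQM1, a transaldolase, at 1.82, while GND1 was at -0.57 and TAL1 at -0.62, all 5 called and held both ways. Over the 11 groups GND2 was higher in 7 and lower in 1, NQM1 higher in 7, GND1 higher in 2 and lower in 1, and TAL1 higher in 2 and lower in 3. TKL2 was tested in 9 groups and higher in 4. TKL2 did not follow the median on the self arrays. TKL1, the other transketolase gene, was not called in YKH109 on the centred scale. SOL4 was higher in 2 groups, at 1.26 in YKH109, a call lost without replicate 1 at 0.63, and at 1.75 in YKH101, lost without either array. The glycerol branch leaves glycolysis at the triose phosphates. In YKH108 all 6 of its listed genes were higher, where 17.0% of all genes were, and none of these calls held on the deposited scale. GPD2, a glycerol 3-phosphate dehydrogenase, was at 1.82 in YJS9, -1.33 in YKH107 and -1.36 in YKH109, each held both ways, and over all groups it was higher in 4 and lower in 2. Its isoform GPD1 was higher in 3 and lower in 2, at 1.38 in YKH109, opposite to GPD2, and that call was lost on the deposited scale. Of the phosphatases, GPP2 was higher in 5 groups and lower in 2, at -1.41 in YKH107, and GPP1 higher in 4 and lower in 2, at -0.90 in YKH109, both values held both ways. GUT2, which oxidises glycerol 3-phosphate in mitochondria, was higher in 6, at 1.68 in YJS9 where it held both ways. Its summed squared centred value on the 4 YJS6 self arrays was 3.472, larger than for any member. GUT1, glycerol kinase, was higher in YKH108 at 0.49, with the other sign on the deposited scale.

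The 7 calls among the genes of gluconeogenesis and the glyoxylate cycle were each lost with some array left out. They were FBP1 in YJS9 at 1.30, or 0.56 without replicate 1, PCK1 in YKH108 at 0.84, or 0.27 without replicate 2, ICL1 in YJS9 at -1.003 and in YKH108 at 0.92, and MLS1 in 3 groups, up to 1.46 in YKH108. PFK27, which makes the phosphofructokinase activator fructose 2,6-bisphosphate, was higher in 5 groups and lower in 2, at -0.97 in YKH107 where PFK1 and PFK2 were lower, and this value held both ways. PFK26, its isoform, was higher in YKH107 at 0.88, with the other sign on the deposited scale, and in 1 other group. FBP26, which breaks the activator down, was higher in 3 groups, each lost with some array left out.

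RAP1, whose product binds glycolytic promoters, was lower in 5 groups, from -0.28 in YKH109, a call lost with an array left out, to -0.74 in YKH107, which held both ways. GCR1 was higher in 2. Its 0.62 in YKH101 was lost without either array and had the other sign on the deposited scale, and its 0.71 in YKH108 was 0.20 and not called without replicate 1, 1.22 without replicate 2 and 0.02 deposited. GCR2, the partner of GCR1, had 0 limma calls and 0 values at an unadjusted p under 0.05. TYE7, a further activator of glycolytic genes, was higher in 4 groups and lower in 2, at -0.695 in YKH107 where it held both ways. HAP4, an activator of respiratory genes, was higher in 4 and lower in 3, at 1.90 in YKH101 and 1.72 in YJS9, both held both ways. PDC2, needed for PDC1 and PDC5 expression, was higher in 3 groups that do not include YJS9, up to 0.72 in YKH104, and MIG1, a glucose repressor, was higher in 2 and lower in 2. Each PDC2 and MIG1 call was lost with some array left out.

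The members differed in how far they followed their own median. Over the 21 arrays of the model the correlation of a member with the median of the 10, which contains it, was 0.232 for HXK2, and 0.732 for PGI1 up to 0.922 for FBA1 among the others. Of 4790 genes measured on all 21 arrays outside the members and lists, DUR3, a urea transporter gene, was the most like this median at r = 0.91, followed by PNS1 at 0.886, YNL208W at 0.885, PMP3 at 0.879 and PIL1, an eisosome component, at 0.871. DUR3 stood at 3.26 in YJS8 at 37 °C, 2.82 in YKH101, 2.90 in YKH108 and -0.09 in YKH107. These correlations share arrays and centring and are given as a description.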

How the data were processed

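Per the labels, images were read with GenePix Pro 4.0. The authors deposited 1 log2 ratio per spot and array, with normalization, scale and direction not given in the sources used here. No raw intensities were used here. Of 6400 spots, 5578 pair with 1 gene and 822 with none in the platform table, and 5573 were matched to current RefSeq gene names. Spots of a gene were averaged. Values were centred on each array's median.

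With limma 3.58.1 (R 4.3.3), 5519 genes with a value on at least 18 of 21 arrays were fitted with 1 term per strain group and a gene-wise dye term. Testing in a group needed values in both dye orientations where the group has both. A call is a p under 0.05 after Benjamini-Hochberg adjustment over all genes of that comparison. The fit had 9 residual and 2.87 prior degrees of freedom, and the median SE was 0.251 for 1 array, 0.173 for 2 and 0.143 for 3. The number of arrays limits the precision. The script was tested on simulated data. The 2 columns deposited with equal values were left out once. YKH109 replicate 2, with the fewest spots, lacks FBA1, CDC19 and PDC1.

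Alternatives were the deposited scale, centring on the middle 80% of spots, no dye term, 3 placements of the repeated column, genes with a value on all arrays, and each array left out. Members and lists were chosen with earlier results of these data known. All members are named. Other pathway genes are named where called in at least 3 of 11 groups or extreme in their list, and so are the 5 most alike genes. LPD1, TKL1, SPT3 and GCN5 were added outside this rule.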

Additional observations from a re-analysis of the deposited data

Results flagged for a closer look

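The YJS8 effect differed between temperatures for PFK2, by 1.593 at 37 °C minus 26 °C, and for PDC1, by 1.277, by the test of the difference. The column deposited under both YKH100 and YJS8 was in no comparison. In it, HXK2 at -0.217, PDC1 at 0.334, PDC5 at 0.693 and ADH1 at -0.41 lay farther from the array median than on any YJS6 self array. No member had an outlying array among the 4 YJS6 self arrays by Dixon's test, which flags about 1 in 20 groups by chance.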

How the results depend on the processing

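Over 3081 member results under alternatives, 2902 kept their direction and their side of the threshold, and 62 changed sign without being called either way. Of the 3081, 2277 came from leaving out 1 array, most often of another strain than the one tested. The total is therefore no measure of how firm the calls are. Of the 43 member calls in single strains, 9 held under all alternatives. The deposited scale moved most. It turned CDC19 in YJS8 (-0.034), PGI1 and PFK2 in YKH108 (-0.143 and -0.144), and PGI1, FBA1, GPM1 and ADH1 in YKH109 (-0.855, -0.252, -0.171 and -0.190), with PGI1 past the threshold. On it, members called higher numbered 0 in YKH101, YJS8, YKH108 and YKH109, 2 in YJS9 and 0 between the YJS8 temperatures. On the same scale 22 of 200 pair tests of a member passed, where 8.05% of all gene pair tests passed. Counting the repeated column under both strains, or under YJS8 alone, left 2 members higher in YJS8 and 0 between its temperatures, and 44 pair tests passed in the second case. Requiring a value on all arrays drops FBA1, CDC19 and PDC1, which leaves 4 higher in YKH101 and in YJS8, 2 in YJS9, 5 in YKH108, 3 in YKH109, 1 between temperatures, and 42 pair tests. Shares over all genes were not counted for the 44 and 42 pair tests. Other causes were not tested. Leaving out 1 array in 19 ways gave 3 to 6 higher in YJS9, 4 to 8 in YKH108, 2 to 6 in YKH109 and 0 to 3 between temperatures. Lower members ranged from 0 to 1 in YKH101, YKH104 and YKH108. These 2277 results lost 38 calls, gained 19 and turned 0.

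Counts over all genes also moved. On the deposited scale 25 of 774 calls were left in number for YJS7, 123 of 872 for YJS8, 1413 of 2388 for YJS9, 11 of 73 for YKH100, 8 of 746 for YKH104, 1 of 60 for YKH106 and 0 of 413 between temperatures. Without 1 of its own arrays, the count was 1162 or 1254 of 2158 for YKH101, 330 or 510 for YJS7, 1464 or 1483 for YJS9, 72 or 106 for YKH104, 12 or 20 for YKH106, 1493 or 1628 of 2662 for YKH107, 1000 or 1055 of 2033 for YKH108, and 153 between temperatures without 26 °C replicate 2. YKH100 had 44 without either YKH104 array, and YJS8 at 26 °C, with 1 call, had 0 to 4 under the alternatives. The repeated column under both strains gave 469 for YJS8, 197 for YKH100, 35 for YKH106 and 12 between temperatures. Under YJS8 alone it gave 364 for YJS8, 34 for YKH100, 23 for YKH106 and 7 between temperatures, and under YKH100 alone 318 for YKH100. Without the dye term YKH106 had 35. No paired analysis was possible because replicate numbers follow accession order only and name no shared culture. With 1 to 3 arrays a group, effects near the SE of 1 array could not be seen.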
